A study of Mus musculus with 12 samples.

Results

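The libraries described here are the empty control and the Spi1 library that carry the number 2 in an overexpression experiment on BV2 cells. BV2 is an immortalised line of mouse microglia, the resident macrophages of the brain. These 2 libraries were chosen from the measured values, because they stood apart together from the other 4 libraries of that experiment, numbers 1 and 3 of each group. They are 2 of 6 libraries in the experiment and 2 of 12 in the series. The study lowered or raised Spi1, the gene of the transcription factor PU.1, and its title links PU.1 levels to microglial inflammation and Alzheimer's disease. The 4 groups of 3 libraries were a scrambled control and a short hairpin RNA against Spi1 in the knockdown experiment, and an empty control and mouse Spi1 cDNA in the overexpression experiment. Both changes were transient. All groups were BV2 cells grown in DMEM with fetal bovine serum and penicillin-streptomycin, sorted by flow cytometry ahead of RNA extraction, and given no other treatment per the labels. BV2 is 1 cell line, and the promoters driving the cDNA and the hairpin, the times of harvest and the gates of the sort are not stated in the labels. The numbers come from the sample titles, which do not say whether libraries of 1 number share a culture, a day or a passage. A p-value here thus reflects no more than the scatter among single libraries, which could be technical.

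Macrophages make small amounts of type I interferon without infection, and this autocrine signal acts through the receptor, the kinases JAK1 and TYK2 and the factor ISGF3 to hold a large group of antiviral genes at a basal level. Cells short of amino acids, or with misfolded protein or other stress, translate the transcription factor ATF4, whose targets supply amino acids and include the pro-apoptotic factor CHOP. Dividing cells transcribe the genes of ribosome assembly under MYC and the genes of DNA replication under E2F, while the mRNAs of the ribosomal proteins themselves carry a 5′ terminal oligopyrimidine tract and are controlled largely through their translation and stability.

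The promoters of 5 genes of the first and the second of these pathways are shown because both gene groups stood apart in libraries 2. These 5 were taken from genes whose promoter already held a match to the motif searched for their pathway. ISGF3 binds the interferon-stimulated response element, whose core was searched as GAAANNGAAA on both strands. ATF4 binds a composite element with C/EBP partners, searched as TGATGCAA on both strands, and the motifs do not overlap each other. The 250 bases before the start site are from the RefSeq promoter table of GRCm38.p6, written 5′ to 3′ on the gene's strand with each match in capitals. The element reads as its reverse complement in Ifit1, Ifit3 and Atf3. The coordinates are chr19:34640639-34640888, plus strand, for Ifit1; chr19:34583279-34583528, plus strand, for Ifit3; and chr5:92348890-92349139, minus strand, for Cxcl10. They are chr1:191183334-191183583, minus strand, for Atf3 and chr11:120643749-120643998, minus strand, for Pycr1.
Ifit1: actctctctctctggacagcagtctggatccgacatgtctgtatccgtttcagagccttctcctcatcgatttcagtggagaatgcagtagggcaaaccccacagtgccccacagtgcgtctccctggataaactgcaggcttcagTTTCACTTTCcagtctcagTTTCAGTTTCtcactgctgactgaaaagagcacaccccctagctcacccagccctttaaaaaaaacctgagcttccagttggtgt
Ifit3: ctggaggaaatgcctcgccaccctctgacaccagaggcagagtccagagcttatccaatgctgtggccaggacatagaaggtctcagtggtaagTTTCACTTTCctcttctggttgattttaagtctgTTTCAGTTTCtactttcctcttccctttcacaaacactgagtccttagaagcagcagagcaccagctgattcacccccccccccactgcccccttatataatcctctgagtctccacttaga
Cxcl10: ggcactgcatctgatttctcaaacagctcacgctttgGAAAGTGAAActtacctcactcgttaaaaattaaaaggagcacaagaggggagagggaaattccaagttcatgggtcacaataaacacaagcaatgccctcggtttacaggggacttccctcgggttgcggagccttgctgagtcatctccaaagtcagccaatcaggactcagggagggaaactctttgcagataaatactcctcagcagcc
Atf3: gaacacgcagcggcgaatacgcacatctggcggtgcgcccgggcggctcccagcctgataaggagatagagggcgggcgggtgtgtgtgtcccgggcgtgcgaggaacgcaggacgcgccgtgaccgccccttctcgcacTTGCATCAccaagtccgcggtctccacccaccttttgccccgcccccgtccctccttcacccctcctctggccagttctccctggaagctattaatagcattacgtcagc
Pycr1: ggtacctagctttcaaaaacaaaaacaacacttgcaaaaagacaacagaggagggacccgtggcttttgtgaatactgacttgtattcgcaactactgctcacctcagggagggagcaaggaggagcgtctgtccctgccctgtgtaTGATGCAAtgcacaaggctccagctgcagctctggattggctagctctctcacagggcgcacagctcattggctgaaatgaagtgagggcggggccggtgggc
Ifit1 and Ifit3 hold 2 matches each, and the other 3 promoters hold 1 each. A match was a condition of the choice, so its presence in all 5 does not show how common the motifs are. Among 8181 tested genes with a listed promoter, 3.34% had GAAANNGAAA in this window. It was in 18 of 36 interferon response genes (50%), in 45 of 641 genes that were lower in libraries 2 (7.02%) and in 13 of 276 that were higher (4.71%). TGATGCAA was in 0.648% of all these promoters, in 5 of 24 genes of the ATF4 list (20.8%), in 3 of 641 genes that were lower and in 3 of 276 that were higher. The lower genes include interferon response genes and the higher ones include ATF4 genes, so these shares overlap and are not separate results. A match is a description of the letters and not a binding site.

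Libraries 2 lay within the depth range of the others. Reads on genes, recovered from the steps in the deposited values, came to 23.9 megareads in empty control 2 and 27.7 in Spi1 library 2, against 22.3 to 29.8 in the other 4. They had the fewest genes above 0 in the experiment, 14871 and 15009 against 15081 to 15492. Their 10 most abundant genes took 10.1% and 11.2% of the reads, against 6.68% to 7.83%. Summed macrophage markers (Cd68, Csf1r, Aif1, Itgam, Emr1, Tyrobp, Fcer1g, Laptm5, Cx3cr1 and Ptprc) were 2371 and 2332 FPKM in libraries 2 and 2101 to 2258 FPKM in the other 4, and Cx3cr1 was at most 0.477 FPKM in any library. The summed markers of neurons, astrocytes, fibroblasts, T and NK cells, mast cells, erythroid cells and epithelial cells were each below 1 FPKM in every library of the experiment. Endothelial markers summed to 82.1 and 76.2 FPKM in libraries 2 and 89.8 to 103 FPKM in the other 4, nearly all from Kdr and Flt1, with Pecam1, Cdh5, Cldn5 and Tek below 1 FPKM. Oligodendrocyte markers summed to 8.68 and 7.92 FPKM against 11.0 to 12.8 FPKM, nearly all from Cnp, with Mog and Olig2 at 0. Neutrophil markers summed to 3.59 and 4.39 FPKM against 3.14 to 5.41 FPKM, with S100a9 at 0. Of the noncoding and nuclear RNAs, listed as a sign of RNA quality, 8 of 12 were above the other 4 in both libraries 2 and 1 was below. Their median difference was 0.47 on the log2 scale, and over all tested genes 19.6% were above and 41.3% below. Pax5, a transcription factor of B cells, was at 0.312 and 0.0898 FPKM in libraries 2 and 0.804 to 1.42 FPKM in the other 4, with Cd79a, Cd79b and Ms4a1 below 1 FPKM in every library. The part of these measures in the results below was not tested.

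Differences are given as the mean log2(FPKM + 1) of libraries 2 minus that of the other 4 libraries. FPKM counts the reads of a gene relative to its length in kilobases and to the library's megareads. The design is balanced, so the Spi1 treatment cancels in this difference. Because it also chose the libraries, it is a description and carries no test. Of the 11217 genes averaging 1 FPKM or more, both libraries 2 lay above all other 4 in 2199 (19.6%) and below all 4 in 4633 (41.3%). With a difference of at least 0.5 as well, 395 genes were higher (3.52%) and 926 were lower (8.26%), and 41 and 75 of these differed by at least 1. The median difference over all genes was -0.09. Median-of-ratios scaling moved this median by 0.09 to 0.00 and turned the split into 638 higher and 629 lower, so the excess of lower genes depends on the scaling. The typical gene differed by 0.21 on the log2 scale between libraries 2 and the others, and by 0.05 between Spi1 and empty libraries (medians of absolute differences). Just inside the limit of 0.5 were Tbc1d8 and Rps23 at 0.50 and Polq and 1810058I24Rik at -0.50, and just outside were Rhou and Itpkc at 0.50 and Kctd11 and Gtf2h1 at -0.50, all named for their place at the limit.

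The other numbers also formed pairs, with smaller differences at number 3. Counted in the same way, the pair numbered 1 was above the rest in 406 genes and below in 339, and the pair numbered 3 in 78 and 21. In a principal component analysis of log2(FPKM + 1), the first component held 68.1% of the variance. It placed libraries 2 at 24.3 and 23.8, libraries 1 at -18.2 and -18.4, and libraries 3 between them at -4.34 and -7.14. The mean of number 3 lay between those of numbers 1 and 2 in 355 of the 395 higher genes (89.9%) and in 772 of the 926 lower genes (83.4%). Its median place was 35.7% of the way from number 1 to number 2 in the higher genes and 24.2% in the lower genes. In a plot of the first 2 components the treatments lie beside each other within each number.

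**Figure D1:**
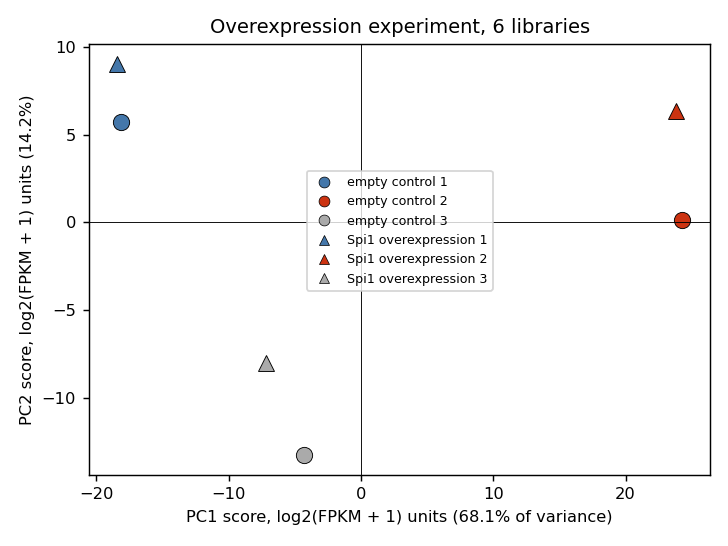
Scores of the 6 libraries of the overexpression experiment on the first component (x axis, 68.1% of variance) and the second (y axis, 14.2%), from log2(FPKM + 1) of 11217 genes; circles are empty controls, triangles Spi1 libraries, and colours the number. Both libraries 2 lie at the right, at 24.3 and 23.8, and each Spi1 library lies near the control of its own number.

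Interferon-stimulated genes were lower in libraries 2, with the lowest median of the 31 gene lists. Of 47 tested members, 43 were below all other 4 libraries in both, 32 of them by at least 0.5, and none was above. Over all genes 41.3% were below and 19.6% above, or 8.26% and 3.52% by at least 0.5. These shares also stand beside the list counts below. The median difference was -0.69, against -0.09 over all genes. In each library, the list median, centred on the mean of libraries 1 and 3, was -0.67 and -0.82 in libraries 2 and 0.09, -0.10, 0.08 and -0.09 in the other 4. The first value is the empty control and the second the Spi1 library, and the other 4 are in the order control 1, control 3, Spi1 library 1 and Spi1 library 3, here and below. As bulk samples, these libraries do not tell fewer cells of a kind from less RNA per cell.

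The largest difference of all, -2.47, was in Cmpk2, the mitochondrial UMP-CMP kinase induced by interferon. It stood at 43.4 and 42.7 FPKM in libraries 2 and at 269, 229, 249 and 229 FPKM in the other 4. Ifit1, an antiviral protein that binds foreign RNA caps, was at 5.79 and 6.14 FPKM in libraries 2 and at 37.2, 26.7, 37.9 and 25.1 FPKM in the other 4. Both genes were about equal in the empty and the Spi1 library of each number. Ifit3, a partner of Ifit1 whose reads may be split with its near-identical neighbour I830012O16Rik (Ifit3b in RefSeq), was at 33.6 and 36.6 FPKM in libraries 2 and at 120.4, 91.4, 130.3 and 93.4 FPKM in the other 4. Cxcl10, a chemokine that draws activated T cells, was at 75.9 and 59.8 FPKM in libraries 2 and at 213, 249, 176 and 218 FPKM in the other 4. Their differences were -2.21, -1.59 and -1.64, and libraries 2 were the lowest 2 of 6 in each gene. The GTPase gene Mx1 differed by -1.52, and Samd9l, an interferon-induced restriction factor, by -1.55. Among the GTPases that act on intracellular pathogens, Gbp7 differed by -1.47 and Irgm1 by -1.17. Libraries 2 of Irgm1 were at 41.4 and 38.4 FPKM, and the other 4 were between 80.2 and 105 FPKM. The 4 interferon genes that did not lie below all others were Oas3, Ifitm3, Phf11d and Slfn2, named for that reason, and the highest difference in the list was 0.04.

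A second group of low transcripts encoded the monocyte-attracting chemokines. Ccl7, which binds the receptors CCR1, CCR2 and CCR3, was at 40.5 and 99.8 FPKM in libraries 2 and at 285, 225, 428 and 367 FPKM in the other 4. Ccl2, the main ligand of CCR2, was at 238 and 456 FPKM in libraries 2 and at 1126, 900.2, 1434 and 1239 FPKM in the other 4. Libraries 2 were the lowest for both, with differences of -2.30 and -1.81, while within each number the Spi1 library was above its control. In the same list of NF-kB targets and inflammatory cytokines other genes were higher, and the list split into 6 genes higher and 5 lower by at least 0.5 out of 37, with a median of 0.09. Ccl3, a chemokine ligand of CCR1, was at 4113 and 4871 FPKM in libraries 2 and at 2163, 2704, 2257 and 2945 FPKM in the other 4. Clec4e, which encodes the mycobacterial glycolipid receptor Mincle, was at 392 and 355 FPKM in libraries 2 and at 124, 193, 107 and 168 FPKM in the other 4. Marco, a scavenger receptor, was low throughout but reached 4.87 and 5.48 FPKM in libraries 2, against 1.55 to 2.59 FPKM in the other 4. So Ccl3, Clec4e and Marco were higher in libraries 2, by 0.84, 1.37 and 1.12, beside Ccl2 and Ccl7, which were lower. Cfp, which encodes properdin, the stabiliser of the alternative complement convertase, was at 16.8 and 15.01 FPKM in libraries 2 and at 54.8, 42.5, 61.3 and 39.5 FPKM in the other 4, a difference of -1.56.

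**Figure D2:**
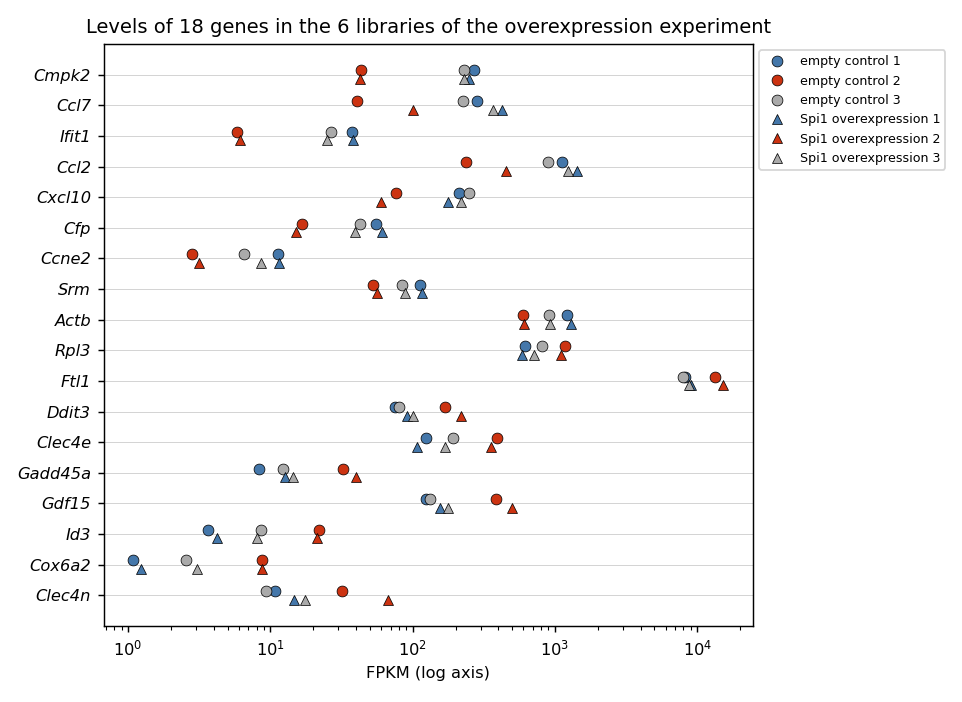
FPKM (x axis, log scale) of 18 genes (y axis) in each library of the overexpression experiment; circles are empty controls, triangles Spi1 libraries, and colours the number. From Cmpk2 to Actb both libraries 2 lie below the other 4, and from Rpl3 to Clec4n they lie above.

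Genes of the G1/S transition and DNA replication were lower in libraries 2, and those of mitosis were not set apart by 0.5 or more. Of 35 tested G1/S genes, 30 were below the other 4 in both libraries and none was above. In 17 the difference was at least 0.5, and the median was -0.49. Of 33 G2/M genes, 4 were below, none was above and none differed by 0.5, with a median of -0.21. Ccne2, a cyclin that drives entry into S phase, was at 2.79 and 3.13 FPKM in libraries 2 and at 11.4, 6.55, 11.4 and 8.59 FPKM in the other 4. Its paralog Ccne1 was at 13.3 and 13.5 FPKM in libraries 2 and at 23.8 to 30.0 FPKM in the other 4. The differences were -1.38 and -0.96, so libraries 2 were lowest for both cyclins. Rrm2, the small subunit of ribonucleotide reductase, differed by -0.92 and Tyms, thymidylate synthase, by -0.90. Replication-dependent histones were below the others in 11 of 13 tested genes, 6 of them by 0.5 or more, with a median of -0.41. Hist1h3g, a histone H3 gene with many close copies, was at 2.55 and 2.35 FPKM in libraries 2 and at 9.10, 9.65, 10.7 and 9.44 FPKM in the other 4. Histone mRNAs of this kind mostly lack a polyA tail, so a polyA library holds only a part of them.

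The factors that build ribosomes and the proteins of the ribosome itself stood on opposite sides. Of 35 tested genes of ribosome biogenesis and MYC targets, 31 were below the other 4 in both libraries, 12 by 0.5 or more, and 2 were above, with a median of -0.42. Of 74 cytosolic ribosomal protein genes, 71 were above, 23 by 0.5 or more, and none was below, with a median of 0.42. Srm, which makes spermidine and is a MYC target, was at 52.5 and 55.9 FPKM in libraries 2 and at 113, 84.7, 116 and 89.0 FPKM in the other 4. Nolc1, a chaperone of small nucleolar RNPs, was at 85.6 and 84.6 FPKM in libraries 2 and at 165, 136, 163 and 139 FPKM in the other 4. Both were lowest in libraries 2, highest in libraries 1 and between these in libraries 3. Dkc1, the pseudouridine synthase dyskerin, differed by -0.74 and Nop2, a methyltransferase of ribosomal RNA, by -0.61.

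Rpl3, a protein of the large subunit near the peptidyl transferase centre, was at 1185 and 1094 FPKM in libraries 2 and at 612, 811, 589.9 and 708 FPKM in the other 4. Rpl10a was at 665 and 631 FPKM in libraries 2 and at 363, 477, 377 and 434 FPKM in the other 4. Rpl28 was at 1049 and 1062 FPKM in libraries 2 and at 621, 829, 594 and 706 FPKM in the other 4. All 3 were highest in libraries 2, with differences of 0.75, 0.66 and 0.63. The exceptions in the list were Rpl13, Rplp0 and Rps2, which did not lie above all 4 others. Rpl22l1, a paralog of Rpl22 outside that list, was at 226 and 236 FPKM in libraries 2 and at 72.1, 106, 76.6 and 104 FPKM in the other 4, a difference of 1.38. Ribosomal protein genes have many processed pseudogenes, so single values are uncertain where the counting could split reads among copies. They are also short. The share of genes higher in libraries 2 by 0.5 or more was 6.46% in the shortest of 5 equal classes of recovered gene length and 2.01% in the longest, and the median difference in the 5 length classes ran from -0.06 to -0.11. Other genes within the interquartile range of length of the ribosomal protein list had a median of -0.05. Mitochondrial ribosomal proteins were split, with 33 of 67 below, 13 above and a median of -0.13, beside 41.3% below and 19.6% above over all genes.

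Some protein folding genes of the endoplasmic reticulum were lower. In the list of the unfolded protein response and folding in the endoplasmic reticulum, 14 of 24 were below, 6 by 0.5 or more. In the same list 5 were above, and the median was -0.25. Over all genes 41.3% were below and 19.6% above, also beside the heat shock counts that follow. Pdia3, a disulfide isomerase of glycoproteins, was at 115 and 116 FPKM in libraries 2 and at 216, 169, 210.1 and 169 FPKM in the other 4. The lectin chaperone Calr was at 317 and 329.6 FPKM in libraries 2 and at 558, 429, 592 and 426 FPKM in the other 4. Of the heat shock list, 10 of 19 were below, 3 by 0.5 or more, and 3 were above, with a median of -0.12 that is close to the -0.09 over all genes. Hsp90aa1 was at 211 and 222 FPKM in libraries 2 and at 397, 322, 384 and 344 FPKM in the other 4. Hsph1, a nucleotide exchange factor of HSP70, differed by -0.72. In all 4 genes libraries 2 were the lowest. The cytoskeletal genes Actb and Flna, β-actin and the actin crosslinker filamin A, were lower as well. Actb, whose pseudogenes may take some reads, was at 593 and 603 FPKM in libraries 2 and at 1216, 907, 1299 and 921 FPKM in the other 4, a difference of -0.84. Flna was at 45.3 and 48.5 FPKM in libraries 2 and 71.6 to 103 FPKM in the other 4, a difference of -0.87. The glycolytic enzyme Gapdh, given beside Actb as another common reference gene and chosen after its values were seen, was at 877 and 881 FPKM in libraries 2 and at 926, 902, 942 and 833 FPKM in the other 4, and the groups overlapped.

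**Figure D3:**
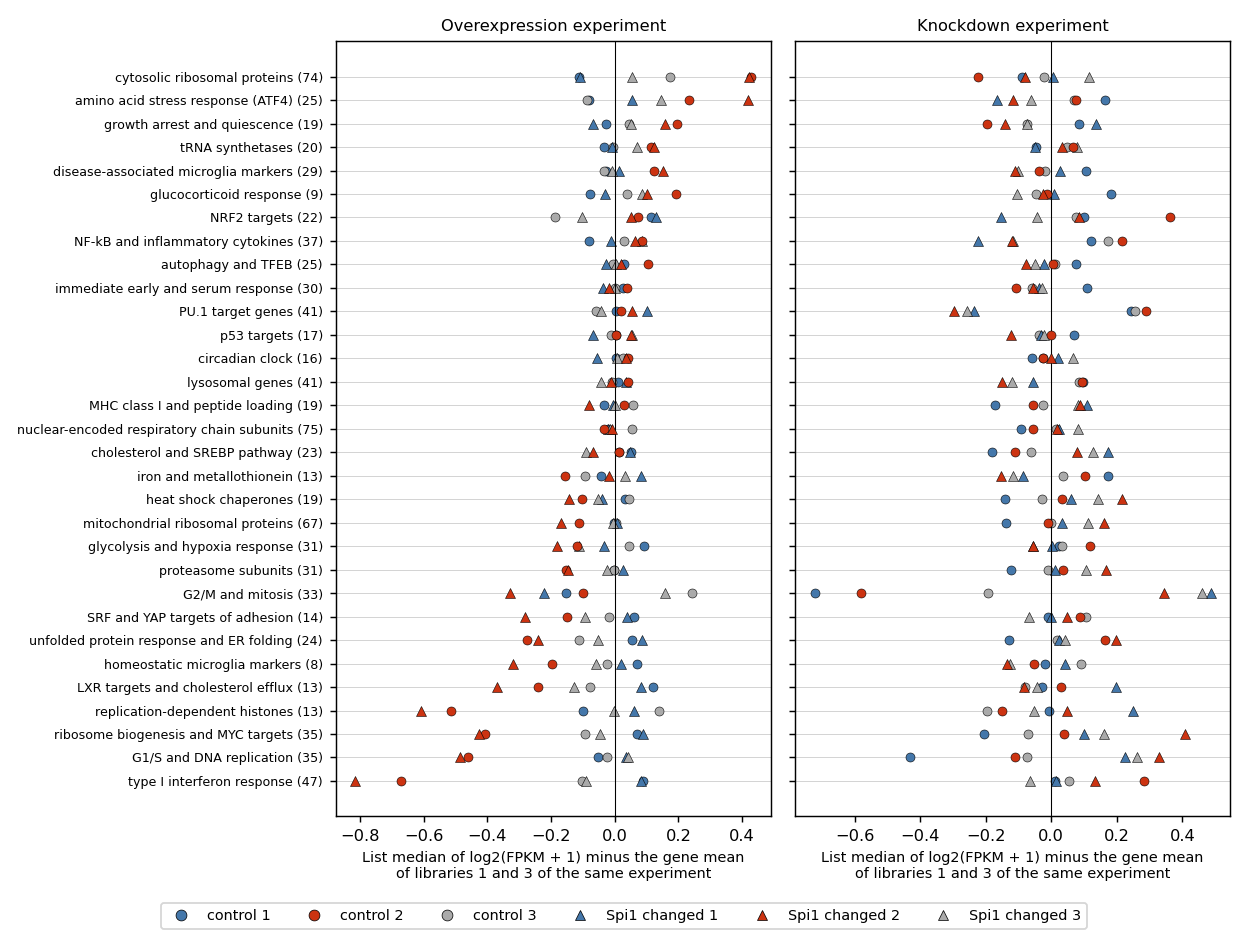
Median over each gene list (y axis, number of tested genes in parentheses) of log2(FPKM + 1) minus the gene's mean in libraries 1 and 3 of the same experiment (x axis, log2), per library; circles are controls, triangles the Spi1 libraries (overexpression left, knockdown right), and colours the number. At the left, both libraries 2 lie lowest for the interferon list (-0.67 and -0.82) and highest for the cytosolic ribosomal proteins, and at the right control 2 is the highest library of the interferon list (0.28) and the lowest of the ribosomal proteins.

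Genes of the ATF4 response were higher. Of 25 tested members, 16 were above the other 4 in both libraries 2, 8 by 0.5 or more, and 1 was below, with a median of 0.33. Ddit3, which encodes CHOP, was at 169 and 219 FPKM in libraries 2 and at 75.4, 79.6, 90.7 and 100.3 FPKM in the other 4. Trib3, a pseudokinase that restrains ATF4 and AKT, was at 27.1 and 34.7 FPKM in libraries 2 and at 12.6, 14.9, 16.2 and 18.9 FPKM in the other 4. Atf3, another stress-induced bZIP factor, was at 185 and 198 FPKM in libraries 2 and at 113, 98.9, 121 and 107 FPKM in the other 4. Libraries 2 were the highest for these 3 genes, and the Spi1 library was the higher of the 2 in each. Pycr1, which completes proline synthesis and has the motif shown above, differed by 0.78 from a level of 1.32 to 1.69 FPKM in the other 4. The tRNA synthetases, several of which are ATF4 targets, had 8 of 20 above, 3 below and none apart by 0.5, with a median of 0.11.

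Other stress and growth arrest genes stood among the highest differences. Gdf15, a secreted stress cytokine of the TGF-β family that is a target of p53 and CHOP, was at 387 and 498 FPKM in libraries 2 and at 123, 132, 155 and 176 FPKM in the other 4. Gadd45a, a growth arrest protein induced by DNA damage and other stress, was at 32.3 and 40.2 FPKM in libraries 2 and at 8.38, 12.3, 12.6 and 14.4 FPKM in the other 4. Id3, a helix-loop-helix inhibitor of E-protein factors, was at 21.9 and 21.3 FPKM in libraries 2 and at 3.62, 8.56, 4.19 and 8.01 FPKM in the other 4. These differences were 1.59, 1.54 and 1.75, and libraries 2 were the highest in each. The p53 list as a whole split, with 4 of 17 higher and 2 lower by 0.5 or more and a median of 0.03. Its members Plk2, a polo-like kinase, and Bbc3, which encodes the pro-apoptotic PUMA, were higher by 0.93 and 0.82. Cdkn1a, which encodes the cell cycle inhibitor p21, was lower, at 38.0 and 36.7 FPKM in libraries 2 and at 72.3, 58.8, 68.9 and 61.7 FPKM in the other 4. The growth arrest and quiescence list had 4 of 19 higher and 1 lower, with a median of 0.18.

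Ferritin genes and ferroportin were higher in libraries 2 and the transferrin receptor was lower. Of the 13 tested genes of the iron and metallothionein list, 5 were above and 3 below, 4 were higher and 2 lower by 0.5 or more, and the median was -0.10. Ftl1, the ferritin light chain, was at 13377 and 15267 FPKM in libraries 2 and at 8206, 7950.2, 8968 and 8769.9 FPKM in the other 4. Fth1, the heavy chain, was at 11581 and 12828 FPKM in libraries 2 and at 7588, 8892, 7854 and 9130.3 FPKM in the other 4. Slc40a1, which encodes the iron exporter ferroportin, was at 33.3 and 42.6 FPKM in libraries 2 and at 16.9, 19.0, 20.1 and 27.5 FPKM in the other 4. These 3 genes of iron storage and export were highest in libraries 2, with differences of 0.76, 0.55 and 0.84. Tfrc, the transferrin receptor that imports iron, was lowest there, at 81.8 and 82.0 FPKM in libraries 2 and at 184, 127, 174 and 149 FPKM in the other 4. Hmox1, which frees iron from haem and is an NRF2 target, was higher by 0.66, and the autophagy receptor Sqstm1, another NRF2 target, by 0.89. Ferritin genes have processed pseudogenes, and Ftl1 shares 34.6% of its exon bases with other annotated genes. The NRF2 list as a whole had 3 of 22 higher and 1 lower, with a median of 0.09.

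Some pattern receptors and some genes of activated microglia were also among the higher ones. Clec4n, which encodes the fungal receptor dectin-2 and is on the list of PU.1 targets, was at 31.7 and 67.1 FPKM in libraries 2 and at 10.8, 9.39, 14.7 and 17.6 FPKM in the other 4. H2-M2, a nonclassical class I molecule, was at 16.7 and 10.2 FPKM in libraries 2 and at 2.17, 4.68, 1.62 and 1.96 FPKM in the other 4. Cox6a2, the muscle form of a cytochrome c oxidase subunit, was at 8.70 and 8.78 FPKM in libraries 2 and at 1.09, 2.56, 1.22 and 3.03 FPKM in the other 4. Libraries 2 were the highest for all 3, at differences of 1.78, 2.03 and 1.77, and for Clec4n each Spi1 library was above its own control. Among markers of disease-associated microglia, 12 of 29 were above, 6 by 0.5 or more, beside 19.6% of all genes above. In this list 6 were below, 1 of these by 0.5 or more, and the median was 0.10. Its differences ran from -0.995 to 0.842, so the largest in size was that of a lower gene. Spp1, osteopontin, was at 13676 and 16616 FPKM in libraries 2 and at 8130.2, 9723, 8802 and 11139 FPKM in the other 4, and Gpnmb, a lysosomal glycoprotein of lipid-laden macrophages, was at 3319 and 3610.1 FPKM in libraries 2 and at 1962, 2284, 2105 and 2413 FPKM in the other 4. Both were highest in libraries 2, by 0.68 and 0.66. Of 8 tested homeostatic markers 4 were below, beside 41.3% of all genes, 3 of them by 0.5 or more, and 2 were above, with a median of -0.25. Csf1r, the receptor for CSF1 that microglia need to survive, was at 54.2 and 46.2 FPKM in libraries 2 and at 91.5, 66.1, 83.7 and 60.7 FPKM in the other 4, a difference of -0.56.

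Targets of LXR, a sterol-sensing nuclear receptor, were lower in part. Of 13 tested 8 were below and 4 of these by 0.5 or more, and 1 was above, with a median of -0.28. Over all genes 41.3% were below, 8.26% by 0.5 or more, and 19.6% were above. Those lower include Abca1, which exports cholesterol (-0.75), and Fasn, fatty acid synthase (-0.75). In the glycolysis and hypoxia list 2 of 31 were higher and 4 lower by 0.5 or more. Pfkfb3, which makes the activator of phosphofructokinase, was at 34.2 and 33.2 FPKM in libraries 2 and at 13.1, 14.3, 12.5 and 15.3 FPKM in the other 4. Slc16a3, a lactate exporter, was at 81.3 and 75.5 FPKM in libraries 2 and at 150.0, 124, 136 and 113 FPKM in the other 4. The first was highest and the second lowest in libraries 2. Egr2, an immediate early factor of macrophages, was higher by 1.03 at 0.747 to 3.09 FPKM over the 6 libraries, and Naglu, a lysosomal glycosidase, by 0.74. The lists of cholesterol synthesis, respiratory chain subunits and class I antigen presentation had medians of -0.04, -0.03 and -0.03, and with median-of-ratios scaling these turned to 0.05, 0.06 and 0.07. Of the 30 genes named for the largest differences, 8 were entries of small or structural noncoding RNAs (Mir6988, Rmrp, Mir6951, Mir3473d, Mir5130, Mir1306, Snord42a and Mir6948). All but Rmrp are shorter than the 100-base reads and rest on few reads. The remaining named ones include Slamf7, a receptor of the SLAM family, at 1.30, the HMG-box gene Tox2 at 1.32 and Aim1l at 1.38.

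Within treatments, Spi1 itself was not on 1 side of the others in both libraries 2. It was at 117 and 224 FPKM in libraries 2 and at 158, 131, 287 and 206 FPKM in the other 4, a difference of -0.21. Both sides hold empty and Spi1 libraries, so the treatment alone made them overlap. Empty control 2 was the lowest control, and Spi1 library 2 lay between the other Spi1 libraries. The list of PU.1 target genes had 16 of 41 above and 11 below, 3 and 4 of these by 0.5 or more, with a median of 0.03. Over all genes 19.6% were above and 41.3% below. Besides Clec4n and Csf1r, Cybb, the catalytic subunit of the phagocyte oxidase, was at 234 and 175 FPKM in libraries 2 and at 150.0, 147, 128 and 117 FPKM in the other 4, a difference of 0.58. Both libraries 2 were above the others for Cybb, and within each number the Spi1 library was below its control.

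The same number could be tested in the knockdown experiment, whose libraries took no part in the choice. There libraries 2, a scrambled control and a knockdown library, were compared with numbers 1 and 3 by limma, with treatment as a covariate and Benjamini-Hochberg (BH) adjustment over 11214 genes. The fit took each library as a separate unit. If libraries of 1 number share a culture, number 2 is a single unit and the p-values of this fit, here and below, overstate the evidence. No gene passed an adjusted p of 0.05 (percent called 0), and 2113 had an unadjusted p under 0.05 (18.8%), 1049 of them higher (9.35%) and 1064 lower (9.49%). The smallest adjusted p was 0.0501, for the ribosomal protein gene Rpl13, at a difference of -0.85 with a standard error of 0.07. An intensity trend in limma gave 9 genes, with median-of-ratios scaling 6, and among genes of at least 5 FPKM 19. Without scrambled control 1 it gave 2 genes and without knockdown library 2 it gave 1. Differences of the knockdown experiment are therefore given as values.

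Most of the genes that stood apart in the overexpression experiment had the other sign in the knockdown experiment. Of 389 higher genes that were also tested there, 358 had a negative difference (92.0%), with a median of -0.20. Of 920 lower genes, 794 had a positive difference (86.3%), with a median of 0.16. Over all genes tested in the knockdown experiment, 47.3% were negative and 52.7% positive. An unadjusted p under 0.05 with the other sign was found in 192 of the 389 and 361 of the 920, and one with the same sign in 2 and 26, beside the 9.49% lower and 9.35% higher of all genes. Both libraries 2 of the knockdown experiment lay outside the other 4, on the other side, in 151 and 237 genes, and on the same side in 4 and 20. The percentages of all genes with both libraries above or below were 8.74% and 8.03%. Across 11112 genes the differences of the 2 experiments had a Pearson correlation of -0.47, as a description only. The experiments share no library, but all genes within 1 experiment share its 6 libraries and their depth. The labels do not say that number 2 marks the same culture or day in both.

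**Figure D4:**
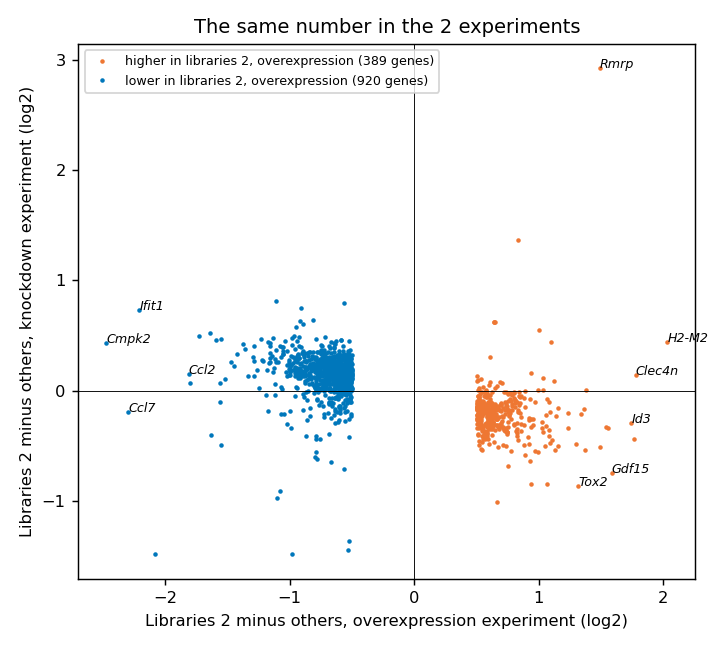
Difference of libraries 2 from libraries 1 and 3 (mean log2(FPKM + 1)) in the overexpression experiment (x axis) and in the knockdown experiment (y axis), 1 point per gene, for the 389 higher and the 920 lower genes. Most points lie at the upper left and lower right, with Ifit1 and Cmpk2 above 0 and Gdf15 and Tox2 below 0 on the y axis, and Ccl7, Clec4n, H2-M2 and Rmrp among the exceptions.

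The interferon list was higher in libraries 2 of the knockdown experiment, without a gene that passed. Its medians in the knockdown experiment were 0.28 and 0.13 in libraries 2 and 0.01, 0.05, 0.02 and -0.07 in the other 4. The highest library was scrambled control 2, and knockdown library 2 was next. Of 47 members 22 had an unadjusted p under 0.05 with a higher level in libraries 2 and none with a lower one, beside 9.35% of all genes for higher, and the median was 0.17. Ifit1 was at 52.4 and 41.9 FPKM in libraries 2 and at 26.7, 31.0, 27.3 and 26.3 FPKM in the other 4, a difference of 0.73 with a standard error of 0.09 (limma, BH adjusted p = 0.099). Cmpk2 was at 381 and 310.4 FPKM in libraries 2 and at 264, 245, 278 and 234 FPKM in the other 4, a difference of 0.43 (adjusted p = 0.152 in limma). Both genes were highest in libraries 2 of this experiment and lowest in libraries 2 of the other, without passing the test. Ccl7 and Ccl2 had differences of -0.20 and 0.15, with overlapping groups.

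Ribosome biogenesis had a median of 0.22 in the knockdown experiment, with 24 of 35 genes at an unadjusted p under 0.05 and higher and none lower. Counted in the same way, the cytosolic ribosomal proteins had a median of -0.15, with 33 of 74 lower and none higher. Biogenesis medians were 0.04 and 0.41 in libraries 2 and -0.21 to 0.16 in the other 4, so control 2 lay among these. Ribosomal protein medians were -0.22 and -0.08 against -0.09 to 0.12, so knockdown library 2 lay among these. Within each treatment library 2 was the highest for biogenesis and the lowest for the ribosomal proteins. The list of folding in the endoplasmic reticulum had 0.17, with 11 of 24 higher. The G1/S list had 0.10, but its 3 of 35 higher did not exceed the 9.35% of all genes. Its library median was -0.11 in control 2 and -0.07 in control 3, so it was not set apart there. The growth arrest list had -0.21, with 8 of 19 lower. For the stress lists the pattern was not of this kind. The ATF4 list had a median of -0.03, with 1 of 24 higher and 2 lower, and the NRF2 list was at 0.22, with 11 of 22 higher, after 0.09 in the overexpression experiment. The NRF2 medians were 0.36 and 0.08 in libraries 2 and 0.10, 0.08, -0.15 and -0.04 in the other 4. Scrambled control 2 stood highest and knockdown library 2 lay among the others, though library 2 was the highest within each treatment. Gdf15 was at 92.6 and 73.0 FPKM in libraries 2 and at 229.6, 116, 131 and 106 FPKM in the other 4, a difference of -0.75 with a standard error of 0.26 (limma, BH adjusted p = 0.216). Fth1 was at 8066 and 5528 FPKM in libraries 2 and at 11427, 10278, 7420.5 and 8381 FPKM in the other 4, a difference of -0.47 (adjusted p = 0.134 in limma). Libraries 2 were thus the lowest for Gdf15 in this experiment, while for Fth1 the knockdown library 2 was the lowest of all and control 2 overlapped with the others.

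The genes that stood apart in libraries 2 were also set beside the 6 libraries of the knockdown experiment. They had been picked for extreme values in libraries 2, and the share over all genes was not counted. The counts therefore do not place libraries 2 within the series. Of the 395 higher genes, 317 (80.3%) were also above all 6 knockdown-experiment libraries in both libraries 2, and of the 926 lower genes 697 (75.3%) were below all 6. The 2 tables hold separate experiments and are each scaled to the libraries' own read totals, so this is a description of deposited levels.

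Spi1 overexpression was compared with the empty control with and without regard to the number. Without the number, limma called 0 of 11217 genes (percent called 0), the smallest adjusted p was 0.99993 and 122 genes had an unadjusted p under 0.05. With an intensity trend it also called none. With the number as a block, 13 genes passed (0.116%), 9 higher and 4 lower, and 1577 had an unadjusted p under 0.05. Of the 13, 4 are miRNA entries shorter than the 100-base reads (Mir7240 among the higher, and Mir6946, Mir7026 and Mir3101 among the lower), each resting on few reads. Without both libraries 2 and without the block none passed, and 211 had an unadjusted p under 0.05. A gene with a large Spi1 difference seldom has both libraries 2 on 1 side, so few such genes can count as apart. Ccl12, Mmp12 and Ccl5 passed with the block and differed by -1.21, -0.99 and 0.64 in libraries 2, yet were not counted. The counts that follow thus do not show that the 2 sets of genes are separate. Of the genes that stood apart in libraries 2, none passed without the block, and with it none of the 395 and 1 of the 926 did. That 1 is Gsta2, a glutathione S-transferase listed at 0 in empty control 2 and at 0.592 FPKM in Spi1 library 2.

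Spi1 was 117 FPKM in empty control 2 and 224 FPKM in Spi1 library 2, a log2 ratio of 0.92, beside 0.85 for number 1 and 0.65 for number 3. Over the 3 pairs the log2 difference was 0.81 with a standard error of 0.06 (limma with the replicate block, BH adjusted p = 0.0357), and 0.99993 was the adjusted p without the block. Mmp12, Ccl12, Ccl5 and Gsta2 were chosen after their values were seen. Mmp12, macrophage elastase, was at 2.99 and 12.8 FPKM in libraries 2 and at 7.29, 3.90, 37.0 and 29.6 FPKM in the other 4. Its 3 pairs had log2 differences of 1.79 in number 2, 2.20 in number 1 and 2.64 in number 3 (limma with the replicate block, BH adjusted p = 0.0357). Ccl12, a mouse ligand of CCR2, was at 6.55 and 21.0 FPKM in libraries 2 and at 21.5, 17.0, 46.5 and 39.5 FPKM in the other 4, with 1.54 in number 2, 1.08 in number 1 and 1.17 in number 3 (replicate block, adjusted p = 0.0357 in limma). For both genes Spi1 library 2 lay below the other Spi1 libraries, and for Ccl12 it lay among the empty controls of the other numbers. Ccl5, a chemokine that attracts T cells, was at 2455 and 1683 FPKM in libraries 2 and at 990.5, 2559.8, 664 and 1714 FPKM in the other 4, and its pair differences were -0.54, -0.58 and -0.58 in numbers 2, 1 and 3 (limma with the replicate block, adjusted p = 0.0357). For Ccl5 it was libraries 1 that stood low. Ccl7 and Ccl2, which stood apart in libraries 2, had pair differences of 1.28 and 0.94 in number 2 against 0.58 and 0.35 in number 1 and 0.70 and 0.46 in number 3. Neither passed with the block (limma, BH adjusted p = 0.136 and 0.164).

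**Figure D5:**
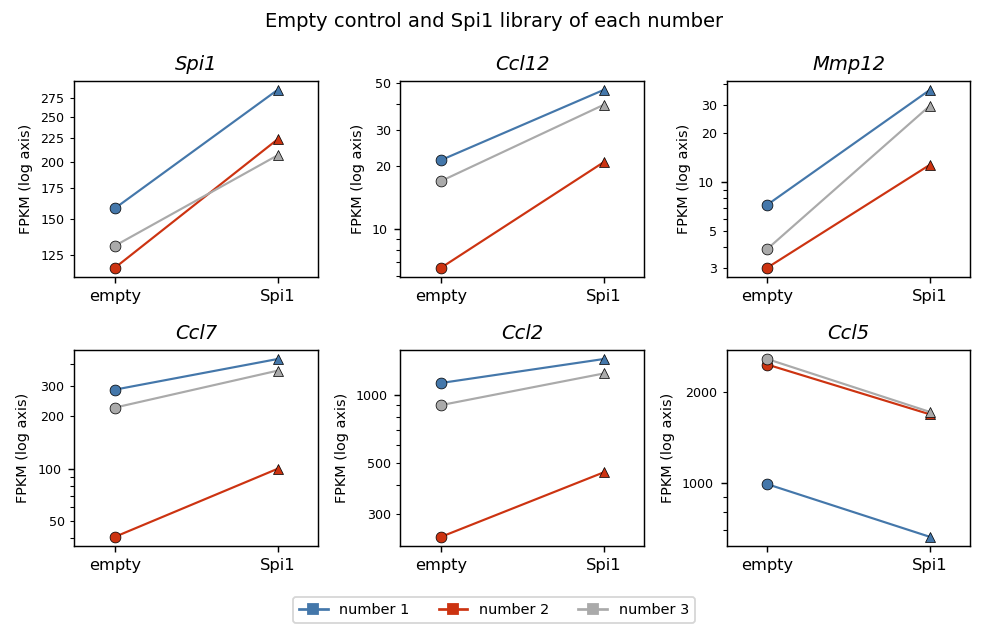
FPKM (y axis, log scale) of 6 genes in the empty control and the Spi1 library (x axis) of each number in the overexpression experiment, with a line joining the libraries of 1 number; colours are the number. The 3 lines run upward for the first 5 genes and downward for Ccl5, while number 2 starts lowest for Spi1, Ccl12, Mmp12, Ccl7 and Ccl2.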

How the data were processed

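RNA was measured in 12 libraries of BV2 cells. Libraries came from polyA RNA with the unstranded TruSeq v2 chemistry and were sequenced as single 100-base reads, per the labels' protocols. The authors deposited 1 table of FPKM per experiment, with 24062 entries, of which 4 with a repeated symbol were left out. The unit is not stated and was read from the values. Tools listed in the submitters' processing notes, with no roles given, are STAR 2.5.2a, featureCounts, CASAVA 1.8.2, bcl2fastq and DESeq2 1.14, and the build is mm10. Neither the annotation nor a strand setting is given in the sources used here. Whole reads and gene lengths were recovered for 17840 of 17842 genes above 0 and were used only for depth and length. Of 69 genes with values in the text that were found in GENCODE M21, 9 share 10% or more of their exon bases with another gene (Cox6a2, Gadd45a, Gbp7, Ccne2, Ddit3, Sqstm1, Ftl1, Spp1 and Csf1r), and reads of such partners cannot be told apart.

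Values were log2(FPKM + 1) of genes averaging 1 FPKM or more over an experiment's 6 libraries. As fold changes on this scale they understate the change of low genes. The unit being FPKM, limma 3.58.1 in R 4.3.3 was used and no count model was run. The difference that chose the libraries has no test. Libraries 2 lie apart in a gene where both are on 1 side of the other 4, by a difference of at least 0.5. Named genes were Spi1, the 15 largest differences of each sign, and from each list up to 4 largest differences and 2 smallest p in the knockdown experiment. Members and lists were chosen with earlier results of these data known. Deviations of same-numbered libraries from their group means correlated at 0.791, 0.845 and 0.513 (numbers 1, 2 and 3, overexpression) and 0.397, 0.540 and 0.345 (knockdown). The overexpression correlations come from the values that chose libraries 2, so they are no independent support for a pairing. The labels do not state a pairing. Taking the numbers as pairs is an assumption, under which the replicate block is given beside the Spi1 comparison. Mitochondrially encoded mRNAs had no symbol in the tables. The sum of 1 marker list is not reported here. Alternatives were the pseudocount, the filter, the scaling, the trend, the covariate, the block and leaving out libraries.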

Additional observations from a re-analysis of the deposited data

Results flagged for a closer look

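Counted first were genes named by the rule and given with values above. Those named for their place at the limit of 0.5 and those chosen after their values were seen are left out. Of 65 such genes that had both libraries 2 on 1 side of the other 4 in the overexpression experiment, 22 had both libraries 2 on the opposite side in the knockdown experiment, and none had them on the same side. Over all named genes, those without printed values included, 160 had both libraries 2 on 1 side in the overexpression experiment. Of these 49 were on the opposite side in the knockdown experiment and 5 on the same side, among them Rmrp, Mir5130, Ndufb2 and Cox5b. Over all genes tested in the knockdown experiment, both libraries 2 lay above the other 4 in 8.74% and below in 8.03%. Some named genes, Ifit1 among them, were picked for a small p of number 2 in the knockdown experiment. The counts of named genes are therefore not an independent comparison with these percentages. The difference between the 2 experiments was not tested, and no gene passed the test in the knockdown experiment by itself. The values here are differences of log2(FPKM + 1) in the knockdown experiment, libraries 2 minus the other 4. Genes that were lower in libraries 2 of the overexpression experiment had positive ones. Among interferon response genes these were 0.73 for Ifit1, 0.52 for Cxcl10, 0.47 for Samd9l, 0.46 for Ifit3, 0.44 for Irgm1, 0.43 for Cmpk2 and 0.26 for Gbp7. The chaperones Calr and Hsph1 were at 0.31 and 0.29, the methyltransferase Nop2 at 0.30, the lactate exporter Slc16a3 at 0.36 and Actb at 0.14.

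Genes that were higher in libraries 2 of the overexpression experiment had negative values. Tox2 was at -0.87, Gdf15 at -0.75, Aim1l at -0.54, Cox6a2 at -0.44 and Naglu at -0.39. Bbc3 was at -0.35, Pfkfb3 at -0.34, Egr2 at -0.29, Spp1 at -0.18 and Clec4e at -0.16. The medians of 3 lists were placed in the same way, with both libraries 2 on opposite sides in the 2 experiments. These were 0.17 for the interferon response, 0.17 for the unfolded protein response and -0.21 for growth arrest and quiescence in the knockdown experiment.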

How the results depend on the processing

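The count of genes apart in libraries 2 was 1321 in all and stayed within 1.5 times of that under another pseudocount, either filter and the median-of-ratios scaling. That scaling raised the number of higher genes from 395 to 638. A difference of at least 1 left 116 genes, 41 higher and 75 lower. Leaving out each library in turn gave 1124 to 1660 genes, 298 to 535 of them higher and 826 to 1125 lower. In the knockdown experiment the 0 calls became 9 with an intensity trend, 19 among genes of at least 5 FPKM and 6 with median-of-ratios scaling, and leaving out each library gave 0 to 2. The Spi1 comparison of the overexpression experiment had 0 calls under each other setting and without each library, and 13 with the replicate block, so the pairing changes that call. The causes were not tested. Of 66 genes with 528 recomputed differences, 515 stayed within the spread between libraries, 13 moved by more and none reversed. Of 62 list medians, 38 stayed, 21 moved and 3 reversed with median-of-ratios scaling, to 0.0496 for cholesterol synthesis, 0.0632 for the respiratory chain and 0.0651 for class I presentation. Values rest on 2 libraries, and small RNA entries on few reads.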
